A study of Mus musculus with 8 samples.

Results

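The comparison described here set mouse embryonic stem (ES) cell cultures sampled after 72 h of tamoxifen against cultures sampled after 48 h of tamoxifen, and its members are the 4 libraries labelled as tamoxifen-treated at those times, 2 for each time, of 8 libraries in all. The ES cells came from tatsf1 flox/flox CreERT2 mice, in which the gene Htatsf1 (written tatsf1 in the allele name) is flanked by recombination sites and a Cre recombinase fused to a modified estrogen receptor domain becomes active when tamoxifen binds it. Tamoxifen was given to delete Htatsf1. The other 4 libraries came from cultures of the same genotype given ethanol, the solvent control, for 48 h or 72 h, 2 for each time. The floxed alleles and CreERT2 are therefore shared by all 8 and do not differ between the times compared. No library came from cells given tamoxifen without the floxed alleles. Loss of Htatsf1, tamoxifen itself and Cre activity thus cannot be told apart in any difference from ethanol. All cultures were grown on mouse embryonic fibroblast (MEF) feeder cells in conventional ES cell medium, and the labels do not say that feeders were removed before RNA was isolated. The promoter that drives CreERT2, the number of ES cell lines, and whether the 2 replicates of a group were separate cultures are not given in the labels, so a p-value here reflects only how far apart the sequenced libraries of a group lie, and that spread may be technical. No sample taken before treatment was analysed here. A code in the names of the deposited tables was the same in all 4 libraries of 48 h and another in all 4 of 72 h, and what it stands for is not stated, so time and that code cannot be told apart. The comparison of tamoxifen with ethanol changes pits each tamoxifen library against ethanol libraries that carry the same code.

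HTATSF1 is an RNA-binding protein that joins the U2 small nuclear ribonucleoprotein (snRNP), the splicing particle that recognises the branch point of introns. Mouse ES cells hold a pluripotent state through a network of transcription factors that includes OCT4 (gene Pou5f1), NANOG and SOX2; cells of the naive state also use factors such as ESRRB, KLF2 and TBX3, whereas formative and primed cells of the later epiblast use the DNA methyltransferases DNMT3A and DNMT3B and the factors LEF1 and OTX2. Fast-growing ES cells make many ribosomes, a process that begins in the nucleolus, and the p53 pathway, which raises Mdm2, Cdkn1a and cell death genes, is known to respond when that process is disturbed.

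Expression was measured by RNA sequencing of bead-enriched mRNA and is given in FPKM, which scales the fragments of a gene by the length of its transcript and by the depth of the library. The tables give no counts, but the width of the deposited confidence bounds implies 8985100 and 13120500 fragments for the 48 h tamoxifen libraries and 16845700 and 13135000 for the 72 h ones, with 10705700 to 14608600 in ethanol. Replicates correlated across genes at 0.995 to 0.997. Over the 8 libraries, the first principal component held 62.3% of the variance and separated the times, the second held 24.3% and separated the treatments, and tamoxifen 48 h replicate 1, the shallowest library, stood apart on the third (3.98%). Htatsf1 (chrX:54306747-54320359, build mm9) was read at 4.13 and 3.78 FPKM at 48 h and 4.12 and 4.63 FPKM at 72 h in tamoxifen, against 22.98 and 21.7 FPKM at 48 h and 22.7 and 22.7 FPKM at 72 h in ethanol; both tamoxifen groups lay below both ethanol groups, and between the 2 tamoxifen times its log2 difference was 0.12 ± 0.08 (SE), limma adjusted p = 0.22. Sox2 was listed at 0 in all 8 libraries and is not described.

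Between 48 h and 72 h the tamoxifen cultures changed widely. Nucleolar ribosome-assembly genes, de novo DNA methyltransferases and several core pluripotency genes fell. Genes that rose included p53 targets, lysosomal genes, keratins, fibroblast and contractile genes, and Nanog, Esrrb and Tbx3. Of 20 tested genes in the naive list 7 rose and 7 fell, beside 37.5% and 19.6% of all genes. Most of these directions were also seen in the ethanol cultures. Genes with a called difference from ethanol included Mdm2, Ddit3 and many fibroblast and smooth muscle genes, whose difference was positive, and pluripotency genes such as Klf2, Nr5a2 and Fbxo15, whose difference was negative.

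Of 11867 genes tested (those with at least 1 FPKM in at least 2 libraries), 4446 were called higher at 72 h than at 48 h in tamoxifen, which is 37.5%, and 2328 were called lower, which is 19.6%. A gene was called when its difference on the log2(FPKM + 1) scale had an adjusted p under 0.05 in limma, a linear model with a shared variance estimate; this scale understates the change of genes near or below 1 FPKM. Changes of at least 2-fold on that scale were fewer, 258 rises (2.17%) and 54 falls (0.455%). With deposited FPKM the median of all tested genes moved by 0.11 on the log2 scale. After the libraries were rescaled by their median ratio, so that the median of all genes moved by 0.01, 3316 genes were higher and 3311 lower (27.9% each), and the share of calls that were higher went from 65.6% to an even split (50.04%); it was 48.8% after quantile normalization. All 2328 lower genes were still lower after median-ratio scaling and 3316 of the higher ones were still higher, with 0 called the other way. Under quantile normalization 1 higher gene was called lower.

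In ethanol, 4506 genes (38.0%) were higher at 72 h and 2278 (19.2%) lower. These shares are the background for the list counts given in ethanol. The 2 comparisons share no library. Genes called higher in both numbered 3443, which is 77.4% of the genes higher in tamoxifen and 76.4% of those higher in ethanol, and 1626 were lower in both, 69.8% and 71.4% of the respective lists. Across genes the 2 changes had a Pearson correlation of 0.82, given as a description because genes are not independent. The difference between the 2 changes, tamoxifen minus ethanol, was tested for each gene: it was positive for 237 genes (2.00%) and negative for 172 (1.45%). Of the 967 genes higher in tamoxifen and not called in ethanol, 80 had a called difference, and of the 677 lower genes not called in ethanol, 33 did. The 237 positive differences comprised 80 genes that rose in tamoxifen without a call in ethanol, 55 that fell in ethanol without a call in tamoxifen, 43 that rose in both, 33 that rose in tamoxifen and fell in ethanol, and 26 that fell in both. Among the 172 negative differences, 52 rose in both, 52 rose in ethanol without a call in tamoxifen, 33 fell in tamoxifen without a call in ethanol, 21 fell in tamoxifen and rose in ethanol, and 14 fell in both.

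Calls for this difference were fewer whichever library was left out. Each such refit has fewer libraries, so that loss and the part of a single library in the lower counts cannot be told apart. With ethanol 48 h replicate 1 left out, 37 positive and 13 negative differences were called, and with ethanol 48 h replicate 2 left out 41 and 21. Without ethanol 72 h replicate 1 they were 98 and 48, and without ethanol 72 h replicate 2 they were 87 and 40. For the tamoxifen libraries the counts were 72 and 36 without 48 h replicate 1, 96 and 100 without 48 h replicate 2, 160 and 83 without 72 h replicate 1, and 83 and 89 without 72 h replicate 2. Differences that stayed called whichever 1 of the 8 libraries was left out numbered 30 positive and 6 negative, and where a difference is given for a gene in the following text, the number of these 8 refits in which it was called stands beside it. Of the calls between the tamoxifen times, 3031 of 4446 rises and 1454 of 2328 falls stayed called in all 8 refits.

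**Figure D1:**
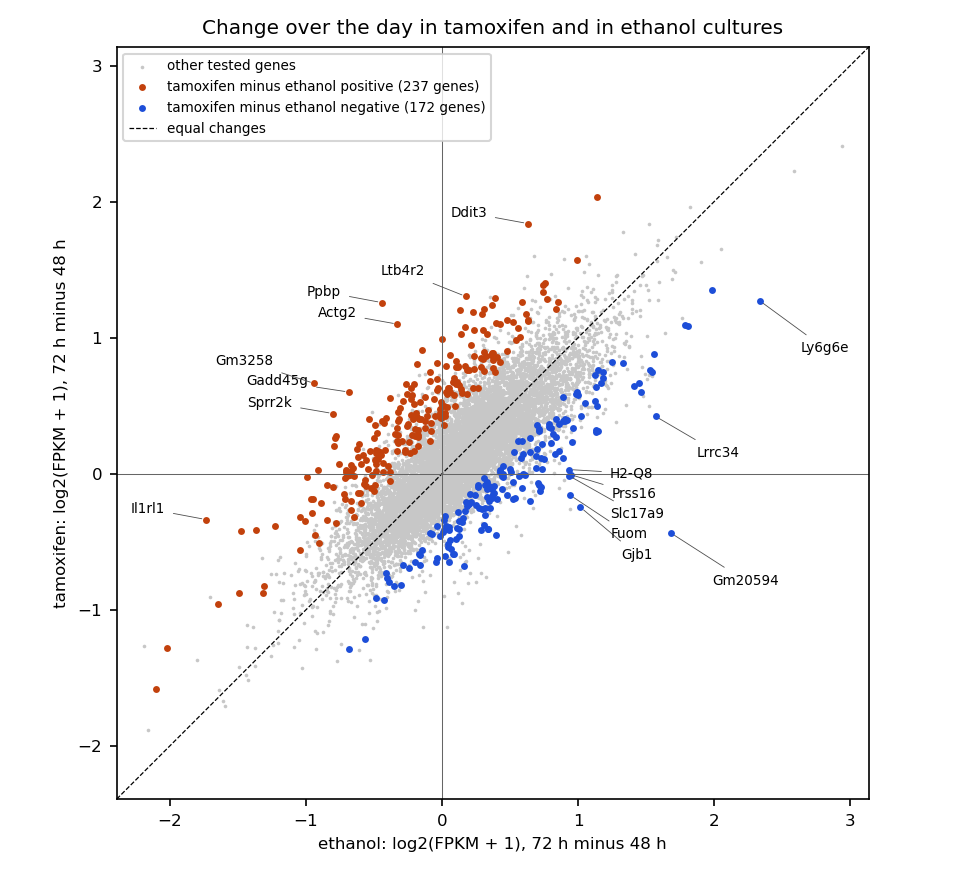
Change from 48 h to 72 h for each of the 11867 tested genes, as a difference of mean log2(FPKM + 1), in ethanol (horizontal axis) and tamoxifen (vertical axis). Most points follow the dashed line of equal changes; orange points (237) lie above it with a called positive difference and blue points (172) below it with a called negative one.

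The steepest rises in tamoxifen were in genes of varied function, and most were shared with ethanol. Got1l1 (chr8:28307931-28313019, mm9), a relative of the aspartate aminotransferase gene, was at 2.84 and 2.04 FPKM at 48 h and 16.2 and 18.1 FPKM at 72 h, and the mean rose 7.02-fold (log2 change 2.41 ± 0.14, adjusted p = 1.80e-06). Fabp3, which encodes a fatty acid binding protein of muscle, was at 48.6 and 48.1 FPKM at 48 h and 195 and 272 FPKM at 72 h, a 4.83-fold rise. Acta1, the skeletal muscle actin gene, was at 1.402 and 2.13 FPKM at 48 h and 10.1 and 10.4 FPKM at 72 h and rose by 2.04 on the log2 scale, while in ethanol it rose by 1.14; the difference of 0.90 (adjusted p = 0.027) was called in 2 of the 8 refits. Serinc5, a membrane protein gene, was at 3.96 and 3.79 FPKM at 48 h and 16.1 and 16.7 FPKM at 72 h and rose by 1.83, with a rise of 1.53 in ethanol. In each of these genes both 72 h libraries lay above both 48 h libraries, which was a condition for choosing the largest rises. Klhl26, Ninj1, Hspb2 and Ltb, with rises of 1.78, 1.74, 1.72 and 1.68, complete the 10 largest together with Bmp7 and Ddit3, described with their pathways. Hspb2 and Ltb were below 1 FPKM at 48 h, at 0.905 and 0.450 FPKM and at 0.272 and 0.731 FPKM. Their lowest implied fragments in a tamoxifen library were 4.32 and 3.00, so their values are imprecise.

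The steepest fall was that of Lef1 (chr3:130813215-130927275, mm9), a transcription factor of the WNT pathway, which went from 5.50 and 5.27 FPKM to 0.847 and 0.625 FPKM, a mean 7.32-fold lower (log2 change -1.88 ± 0.11, adjusted p = 1.80e-06). Pim2, a growth-promoting kinase gene, was at 45.4 and 44.8 FPKM at 48 h and 14.7 and 14.1 FPKM at 72 h; it fell by 1.58, less than the 2.11 by which it fell in ethanol, and this difference of 0.52 (adjusted p = 0.0127) was called in 6 of the 8 refits. Soga3, Serpinb2, Zfp428, Enox1, Fam169a and Aoah fell by 1.42 to 1.71. For all of these both 72 h libraries were below both 48 h libraries, which was likewise a condition for choosing the largest falls. Hist2h4, a replication-dependent histone gene, is also among the 10 largest falls at 47.05 and 24.2 FPKM at 48 h and 10.9 and 14.1 FPKM at 72 h, and its 2 libraries of 48 h are far apart.

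Core pluripotency genes mostly fell. Of 14 tested members of a list of 15, 11 fell and 2 rose, against 19.6% and 37.5% of all genes, with a median log2 change of -0.45. The counts were the same after median-ratio scaling, beside 27.9% each of all genes. L1td1 (chr4:98393445-98405177, mm9), an RNA-binding protein gene of ES cells, was at 231 and 233 FPKM at 48 h and 109 and 107 FPKM at 72 h and fell by 1.099 ± 0.05 (SE), adjusted p = 9.94e-07. Its fall in ethanol was 1.02. Dppa2, a chromatin factor gene of the early embryo, was at 65.1 and 65.9 FPKM at 48 h and 32.3 and 33.2 FPKM at 72 h and fell by 0.98 in tamoxifen and 0.95 in ethanol. Pou5f1, which encodes OCT4, was at 615 and 628 FPKM at 48 h and 517 and 529.9 FPKM at 72 h, a fall of 0.25 ± 0.06 (adjusted p = 0.00348), and it fell by 0.40 in ethanol. These 3 genes separated the times without overlap and their differences from ethanol were not called. Lin28a, Gdf3 and Sall4 fell by 0.59, 0.47 and 0.44. Utf1 was not called, at 0.13.

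In 4 core genes the change in tamoxifen was more negative than in ethanol. Dnmt3l, a cofactor of the de novo DNA methyltransferases, was at 168 and 161 FPKM at 48 h and 88.4 and 85.4 FPKM at 72 h in tamoxifen. The ethanol libraries read 169.9 and 185 FPKM at 48 h and 123 and 129.5 FPKM at 72 h, a difference of -0.42 (adjusted p = 0.0291; called in 1 of 8 refits). Trim71, a gene of an RNA-binding ubiquitin ligase, fell by 0.46 in tamoxifen and was not called in ethanol (0.13), a difference of -0.58 (adjusted p = 0.0386; 2 of 8). Zfp42, which encodes REX1, fell by 0.23 in tamoxifen and rose by 0.19 in ethanol, a difference of -0.42 (adjusted p = 0.0344; 1 of 8). Nanog (chr6:122657586-122663796, mm9) went the other way from most of the list: it rose in tamoxifen from 61.8 and 61.3 FPKM to 97.4 and 108 FPKM, by 0.73 ± 0.07 (adjusted p = 1.55e-05). In ethanol Nanog reached 154 and 139 FPKM from 65.9 and 66.96 FPKM, so its rise was 0.40 smaller in tamoxifen (adjusted p = 0.0489; 1 of 8). The 4 negative differences among the 14 tested genes of this list, with 0 positive, stand beside 1.45% and 2.00% of all genes. The count of 4 fell to between 0 and 2 when any 1 library was left out.

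In the naive list 7 of 20 tested genes rose and 7 fell, beside 37.5% and 19.6% of all genes. The median of 0.01 became -0.10 after median-ratio scaling and -0.02 after quantile normalization. In ethanol 12 rose and 4 fell with a median of 0.30, beside 38.0% and 19.2% of all genes. Genes that rose included 3 transcription factor genes of this network. Tbx3 was at 7.94 and 8.49 FPKM at 48 h and 19.6 and 18.96 FPKM at 72 h and rose by 1.14 ± 0.09 (SE), adjusted p = 6.60e-06. Esrrb was at 56.9 and 60.6 FPKM at 48 h and 109.6 and 106 FPKM at 72 h and rose by 0.86. Tfcp2l1 was at 16.9 and 16.3 FPKM at 48 h and 32.2 and 26.9 FPKM at 72 h, a rise of 0.79. Ethanol cultures showed rises of 1.12, 1.00 and 1.18 in the same order. Falls were led by Nr0b1, an orphan nuclear receptor gene, at 47.4 and 44.5 FPKM at 48 h and 23.7 and 23.5 FPKM at 72 h, and by Gbx2, a homeobox gene, at 23.2 and 21.9 FPKM at 48 h and 11.97 and 11.4 FPKM at 72 h; they fell by 0.93 and 0.89.

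All 7 called differences from ethanol in the naive list were negative, 7 of 20 genes beside 1.45% of all genes. Klf2, a Krüppel-like factor gene, was at 64.4 and 71.5 FPKM at 48 h and 48.1 and 48.1 FPKM at 72 h in tamoxifen but 69.2 and 67.4 FPKM at 48 h and 72.1 and 70.5 FPKM at 72 h in ethanol: it fell by 0.49 in the one and was not called in the other (0.06), a difference of -0.55 (adjusted p = 0.0134; called in 6 of 8 refits). Nr5a2, which encodes LRH-1, went from 5.08 and 5.23 FPKM to 3.71 and 3.60 FPKM in tamoxifen while in ethanol it was at 5.41 and 6.63 FPKM at 48 h and 8.09 and 7.61 FPKM at 72 h, a difference of -0.74 (adjusted p = 0.025; 2 of 8). Fbxo15, a target gene of OCT4 and SOX2, stayed between 51.3 and 57.1 FPKM in all 4 tamoxifen libraries, and the times overlapped. In ethanol it was at 54.7 and 60.2 FPKM at 48 h and 84.4 and 86.7 FPKM at 72 h, giving a difference of -0.59 (adjusted p = 0.0163; 5 of 8). The other differences were those of Nr0b1 (-0.50; 1 of 8), Klf4 (-0.44; 3 of 8), Fgf4 (-0.36; 0 of 8) and Zfp42, which is in both lists. Left-out libraries changed the count of 7 to 0 (ethanol 48 h replicate 1), 2 (ethanol 48 h replicate 2, ethanol 72 h replicate 1 and each tamoxifen 48 h library), 3 (ethanol 72 h replicate 2), 4 (tamoxifen 72 h replicate 1) or 5.

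Genes of the formative and primed epiblast fell in 10 of 20 cases and rose in 3, beside 19.6% and 37.5% of all genes, with a median of -0.19, and in ethanol 13 fell and 3 rose. Dnmt3b (chr2:153475185-153513466, mm9), a de novo DNA methyltransferase gene, was at 185 and 192 FPKM at 48 h and 84.6 and 71.9 FPKM at 72 h and fell by 1.26 ± 0.07 (SE), adjusted p = 1.57e-06. Dnmt3a was at 64.8 and 64.7 FPKM at 48 h and 31.2 and 27.6 FPKM at 72 h and fell by 1.11. Their falls in ethanol were 1.24 and 1.44. Foxd3 and Pou3f1, transcription factor genes of the epiblast, fell by 1.41 and 0.80. Fst, the gene of the activin antagonist follistatin, fell by 0.32 in tamoxifen and 1.04 in ethanol, a difference of 0.72 (adjusted p = 0.0297; 2 of 8). In a list of DNA methylation and TET genes, 8 of 14 fell and 0 rose in limma (at an unadjusted p under 0.05, 8 fell and 1 rose; median -0.30): besides Dnmt3a, Dnmt3b and Dnmt3l, these were Tet1, Tet2, Trim28, Zfp57 and Mbd3, while Dnmt1, the maintenance methyltransferase gene, was not called at -0.09.

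**Figure D2:**
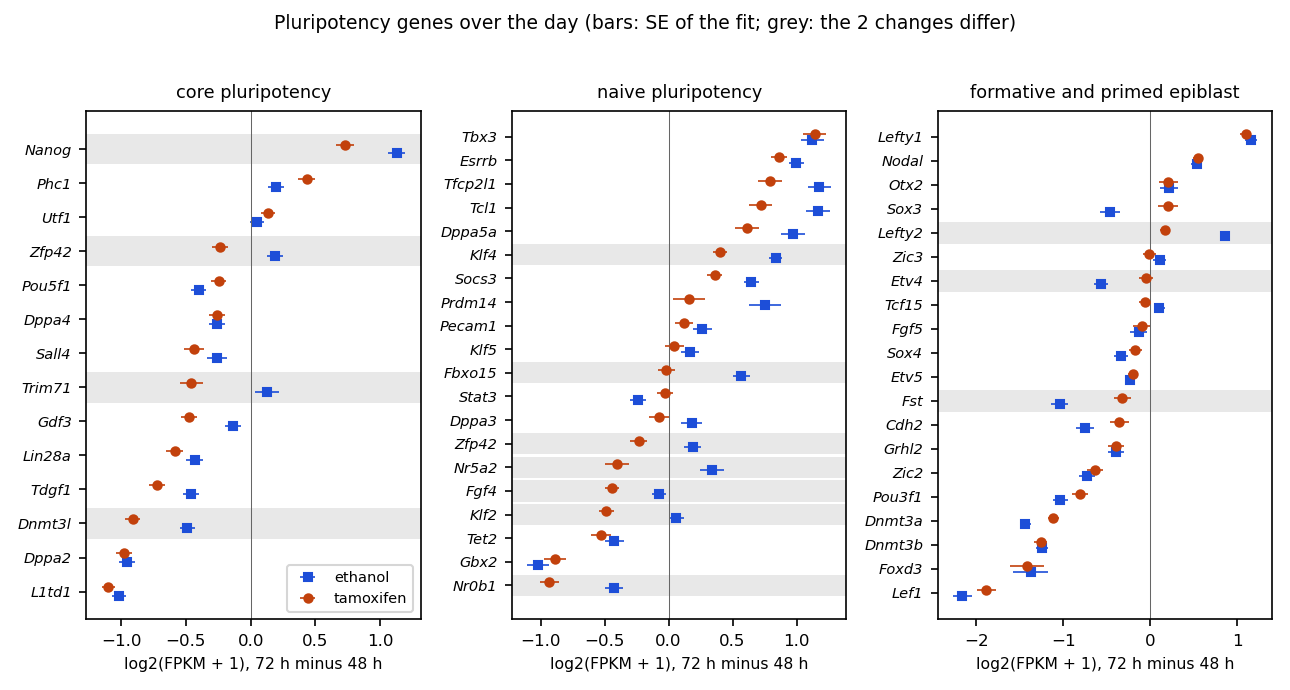
Change from 48 h to 72 h of the tested core, naive and formative genes in tamoxifen and ethanol, as the difference of mean log2(FPKM + 1) with its standard error from limma; grey marks genes whose 2 changes had a called difference. Most core genes lie left of 0 in both treatments, Nanog, Esrrb and Tbx3 lie right of 0, and Klf2 and Nr5a2 lie left of 0 in tamoxifen and right of 0 in ethanol.

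Among signalling genes the largest changes were again shared. In the NODAL pathway, 11 of 17 genes rose and 3 fell (median 0.36), beside 37.5% and 19.6% of all genes. Lefty1, a secreted NODAL inhibitor gene, was at 102 and 103 FPKM at 48 h and 231 and 211 FPKM at 72 h and rose by 1.097 ± 0.07 (SE), adjusted p = 2.55e-06, and it rose by 1.16 in ethanol. Its paralog Lefty2 behaved differently from ethanol: it was at 50.3 and 48.05 FPKM at 48 h and 55.6 and 54.9 FPKM at 72 h in tamoxifen. Ethanol cultures had 54.98 and 53.7 FPKM at 48 h and 98.4 and 100.4 FPKM at 72 h, a difference of -0.69 (adjusted p = 0.00473) called in 8 of 8 refits. The small rise of Lefty2 in tamoxifen (0.17, adjusted p = 0.0196) was not called after median-ratio scaling (0.05, adjusted p = 0.45). Nodal itself rose by 0.55.

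In the BMP and ID list, 8 of 15 genes rose and 2 fell. Of all genes, 37.5% rose and 19.6% fell, the background also for the next 3 lists. After median-ratio scaling 4 BMP and ID genes rose and 4 fell, beside 27.9% each of all genes. Bmp7, a ligand gene, was at 1.13 and 0.960 FPKM at 48 h and 7.82 and 6.17 FPKM at 72 h and rose by 1.96 ± 0.12 (SE), adjusted p = 2.28e-06, and Id1, a target gene of BMP signalling, was at 39.2 and 37.5 FPKM at 48 h and 17.03 and 19.14 FPKM at 72 h and fell by 1.05. Ethanol cultures showed a rise of Bmp7 by 1.82 and a fall of Id1 by 0.95. The count of 8 was 4 without tamoxifen 72 h replicate 1 and 5 without either 48 h library of tamoxifen or of ethanol. In the FGF and ERK list 6 of 21 rose and 8 fell; the count of falls was 4 without tamoxifen 48 h replicate 1 or tamoxifen 72 h replicate 2. Myc, a growth-control transcription factor gene, was at 32.4 and 35.6 FPKM at 48 h and 14.4 and 12.4 FPKM at 72 h in tamoxifen and 32.2 and 33.5 FPKM at 48 h and 6.92 and 7.75 FPKM at 72 h in ethanol, so its fall of 1.28 was smaller than that in ethanol by 0.74 (adjusted p = 0.0163; 5 of 8). Fosl1, an AP-1 subunit gene, was at 7.11 and 8.15 FPKM at 48 h and 7.13 and 7.82 FPKM at 72 h with overlapping times in tamoxifen and fell in ethanol from 4.17 and 4.38 FPKM to 1.79 and 1.52 FPKM, a difference of 0.97 (adjusted p = 0.01; 8 of 8). In the WNT list 8 of 16 rose and 4 fell, with Tcf7 up by 0.63 and the feedback gene Notum down by 1.29. After median-ratio scaling 5 WNT genes rose and 6 fell, and the list median of 0.06 became -0.04. Immediate early genes counted 7 rises and 2 falls of 15, with Egr1 and Ier2 down by 0.59 and 0.51, and 4 rises without tamoxifen 48 h replicate 1.

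Some markers of other embryonic lineages rose. Among primitive endoderm genes, 10 of 11 tested rose and 0 fell in limma (11 and 0 at an unadjusted p under 0.05; median 0.60), beside 37.5% and 19.6% of all genes, and 7 rose in ethanol. The defining factor gene Gata4 was at 0.684 and 1.02 FPKM at 48 h and 2.58 and 3.11 FPKM at 72 h and rose by 1.06, whereas Gata6 was not called (0.36, adjusted p = 0.054) and Sox17 was at 0.0276 to 0.0874 FPKM in the 4 tamoxifen libraries. The larger values of this list belong to basement membrane genes, which fibroblasts also express: Lamb1 was at 33.5 and 37.4 FPKM at 48 h and 56.8 and 54.7 FPKM at 72 h and Col4a1 at 20.2 and 21.2 FPKM at 48 h and 30.6 and 31.1 FPKM at 72 h, with rises of 0.64 and 0.55. Of 10 tested trophoblast genes 6 rose and 1 fell (median 0.87). Krt19 was at 6.14 and 6.06 FPKM at 48 h and 21.1 and 19.00 FPKM at 72 h and rose by 1.56 ± 0.09 (SE), adjusted p = 1.57e-06, and Krt18 was at 14.6 and 14.1 FPKM at 48 h and 37.3 and 34.7 FPKM at 72 h and rose by 1.27; both encode keratins of simple epithelia. Krt19 rose by 1.58 in ethanol, and Krt18 by 0.85, which left a difference for Krt18 of 0.41 (adjusted p = 0.0406; 0 of 8). Tfap2c, a transcription factor gene of trophoblast and germ cells, rose by 0.88 in tamoxifen against 1.56 in ethanol, a difference of -0.68 (adjusted p = 0.0111; 8 of 8). Of the 3 defining trophoblast factor genes, Eomes was at 1.35 and 1.08 FPKM at 48 h and 1.80 and 1.28 FPKM at 72 h and was not called (0.19, adjusted p = 0.235), and Cdx2 and Elf5 were too low to be tested.

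In the primitive streak list 6 of 16 genes passed the filter on low values, 2 rose and 1 fell (37.5% and 19.6% of all genes). Wnt3 was at 1.05 and 1.07 FPKM at 48 h and 2.13 and 2.42 FPKM at 72 h and rose by 0.67; T, Mixl1 and Gsc were too low to test. In the list of neuroectoderm and neuron genes 8 of 16 were tested, 4 rose and 2 fell. Neurod1, a neurogenic factor gene, was at 12.2 and 13.3 FPKM at 48 h and 25.9 and 23.3 FPKM at 72 h in tamoxifen. Its ethanol values were 4.10 and 4.14 FPKM at 48 h and 5.22 and 5.46 FPKM at 72 h, a difference of 0.59 (adjusted p = 0.0277; 2 of 8). The neuronal tubulin gene Tubb3 fell by 0.47 and the neuroblast marker Dcx was at 0 to 0.0141 FPKM. Of 10 germline genes 4 rose and 1 fell, with Ddx4 at 11.5 and 11.8 FPKM at 48 h and 6.74 and 7.29 FPKM at 72 h. None of 12 listed genes of the 2-cell stage passed the filter.

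Most tested genes of ribosome assembly fell. Of 92 tested factors of ribosome biogenesis, which transcribe, cut, modify and package ribosomal RNA in the nucleolus, 76 fell and 1 rose, against 19.6% and 37.5% of all genes; the median was -0.35. After median-ratio scaling 84 fell and 0 rose, beside 27.9% each of all genes. Ethanol cultures gave 74 falls and 3 rises with a median of -0.34, beside 19.2% and 38.0% of all genes. In limma 0 genes of the list had a called difference, beside 2.00% positive and 1.45% negative of all genes. At an unadjusted p under 0.05 there were 12, of which 7 were positive and 5 negative. Ncl (chr1:88241294-88256030, mm9), which encodes nucleolin, was at 533 and 527 FPKM at 48 h and 322 and 331 FPKM at 72 h and fell by 0.70 ± 0.06 (SE), adjusted p = 7.55e-06; in ethanol it was at 553 and 584 FPKM at 48 h and 343 and 364 FPKM at 72 h. Polr1b, a subunit gene of RNA polymerase I, was at 42.3 and 46.5 FPKM at 48 h and 25.9 and 22.2 FPKM at 72 h and fell by 0.86. Wdr46, a small-subunit assembly factor gene, was at 41.2 and 42.3 FPKM at 48 h and 24.6 and 22.8 FPKM at 72 h and fell by 0.79 ± 0.06 (SE), adjusted p = 8.00e-06. Npm1, Dkc1, Bop1 and Nop2, which encode nucleophosmin, the pseudouridine synthase dyskerin, a large-subunit factor and an rRNA methyltransferase, fell by 0.54, 0.58, 0.55 and 0.61. In the named genes both 72 h libraries lay below both 48 h libraries. The 1 rise, Ddx54 at 0.19 (adjusted p = 0.0464), was not called after median-ratio scaling, and Pwp2, Gnl3l, Rrp1, Imp3 and Pes1 were among the 15 not called.

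Promoters of some members of the ribosome biogenesis list are shown that hold the E box CACGTG, a sequence that MYC and related factors can bind. Among RefSeq promoters (build GRCm38.p6, 250 bases before to 50 bases after each start, 32851 in all), CACGTG on either strand was found in 15 of 90 promoters of the list (16.7%), against 7.15% of all promoters, and CCGGAAG, a core bound by ETS factors, in 33 of 90 (36.7%) against 8.86%. These matches were not limited to lists that fell: CACGTG was in 32% of the 25 lysosome-list promoters and 16.7% of the 24 of cholesterol synthesis, and CCGGAAG in 36.1% of the 72 of cytoplasmic ribosomal proteins, lists in which most called genes rose. A promoter was found for 80 of the 93 listed genes. The 100 bases printed for each gene lie before the start, 5′ to 3′ on the gene's strand, with CACGTG in capitals. A match is a description of letters and says nothing of whether a factor binds.
Wdr46, chr17:33940623-33940722, plus strand: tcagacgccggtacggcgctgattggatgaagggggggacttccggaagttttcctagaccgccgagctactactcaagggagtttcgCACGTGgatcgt
Imp4, chr1:34439661-34439760, plus strand: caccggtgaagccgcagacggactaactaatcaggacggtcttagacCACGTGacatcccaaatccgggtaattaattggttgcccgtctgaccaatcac
Nop2, chr6:125131776-125131875, plus strand: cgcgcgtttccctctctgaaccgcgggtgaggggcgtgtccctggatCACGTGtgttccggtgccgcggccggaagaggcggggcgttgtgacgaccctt
In Wdr46 the first match begins 12 bases before the start, in Nop2 60 bases and in Imp4 121 bases. Imp4, another small-subunit factor gene, was at 36.1 and 37.1 FPKM at 48 h and 21.2 and 19.3 FPKM at 72 h, a fall of 0.82. The printed genes have larger falls than other members with CACGTG: Utp18, Nol11 and Rrn3 fell by 0.31, 0.22 and 0.20. Pes1, also with CACGTG, was not called. In all, 10 motifs were searched in 8 lists whose results were already known.

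With deposited FPKM most genes of the ribosomal proteins themselves moved the other way, and fewer did so after rescaling. Of 81 tested, 53 rose and 1 fell, beside 37.5% and 19.6% of all genes, with a median of 0.28. After median-ratio scaling 38 rose and 3 fell (median 0.16), beside 27.9% each of all genes. After quantile normalization 31 rose and 12 fell (median 0.10), beside 3051 and 3201 of all 11867 genes. In ethanol 38 rose and 2 fell, beside 38.0% and 19.2% of all genes. Rps10 was at 1059 and 1039.5 FPKM at 48 h and 1543 and 1664 FPKM at 72 h, a rise of 0.61. The single fall was Rpl34, at 44.2 and 50.5 FPKM at 48 h and 29.8 and 23.9 FPKM at 72 h. Many of these genes have near-identical pseudogenes that can take up reads, so single values are uncertain: Rps27 was at 1238 and 163 FPKM at 48 h and 20.4 and 1159 FPKM at 72 h, with a larger gap between replicates of one time than between the means.

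Splicing factors of the U2 snRNP, the particle that HTATSF1 joins, fell in 13 of 22 cases and rose in 3 (median -0.21), beside 19.6% and 37.5% of all genes, with 15 falls and 2 rises in ethanol. U2surp, a U2-associated factor gene, was at 41.3 and 40.5 FPKM at 48 h and 25.6 and 24.97 FPKM at 72 h and fell by 0.67 ± 0.06 (SE), adjusted p = 1.17e-05; in ethanol it fell by 0.29, a difference of -0.39 (adjusted p = 0.0356; 0 of 8). Sf3a3 was at 77.1 and 77.2 FPKM at 48 h and 53.5 and 57.7 FPKM at 72 h and fell by 0.47. Sf3b3 and Rbm17 differed from ethanol in the other direction, by 0.33 and 0.38 (0 and 1 of 8). Their rises of 0.24 and 0.20 in tamoxifen were not called after median-ratio scaling. Of the 5 tested genes in a list of the Htatsf1 neighbourhood on the X chromosome, Htatsf1 itself among them, 0 were called in either direction in limma (0 also at an unadjusted p under 0.05). The smallest adjusted p in tamoxifen was 0.0852, for Fhl1.

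Lysosomal and autophagy genes rose. Of 27 tested, 21 rose and 1 fell (median 0.56), beside 37.5% and 19.6% of all genes, with 19 and 3 after median-ratio scaling (27.9% each of all genes), and 22 rose and 2 fell in ethanol (median 0.39). Sqstm1 (chr11:50013654-50024292, mm9), which encodes the autophagy receptor p62, was at 93.4 and 86.4 FPKM at 48 h and 211 and 209 FPKM at 72 h and rose by 1.21 ± 0.05 (SE), adjusted p = 7.27e-07. Ctsd, the gene of the protease cathepsin D, was at 136 and 127 FPKM at 48 h and 282 and 291 FPKM at 72 h in tamoxifen and 91.7 and 90.6 FPKM at 48 h and 145 and 138 FPKM at 72 h in ethanol. It rose by 1.12 in tamoxifen, 0.49 more than in ethanol (adjusted p = 0.0143; 6 of 8). Ctsb and Sqstm1 also had called positive differences, of 0.40 and 0.38 (1 and 1 of 8). Hexa, a hexosaminidase subunit gene, was at 15.7 and 12.9 FPKM at 48 h and 37.96 and 39.8 FPKM at 72 h and rose by 1.39, with a rise of 1.50 in ethanol. The single fall was Gabarapl2, by 0.27; it was not called without tamoxifen 48 h replicate 1. The 72 h libraries of Sqstm1, Ctsd and Hexa all lay above the 48 h ones.

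The 8-base motif TCACGTGA, which holds CACGTG and resembles the element described for the lysosomal regulators TFEB and TFE3, was found in 5 of 25 lysosome-list promoters (20%; Atp6v0d1, Ctsa, Ctsd, Gla and Mcoln1), in 0.974% of all promoters and in 0 of the 90 ribosome biogenesis promoters. Printed as before, with TCACGTGA in capitals, are 3 of the genes that rose.
Ctsd, chr7:142387873-142387972, minus strand: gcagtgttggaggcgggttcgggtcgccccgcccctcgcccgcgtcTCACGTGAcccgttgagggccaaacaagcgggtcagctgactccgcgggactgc
Mcoln1, chr8:3500419-3500518, plus strand: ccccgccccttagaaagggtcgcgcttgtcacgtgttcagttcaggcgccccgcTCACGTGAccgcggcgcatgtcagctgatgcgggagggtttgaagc
Ctsa, chr2:164833673-164833772, plus strand: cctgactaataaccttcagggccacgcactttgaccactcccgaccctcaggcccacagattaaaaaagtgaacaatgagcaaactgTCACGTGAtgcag
Mcoln1, a calcium channel gene of the lysosome, was at 12.6 and 13.01 FPKM at 48 h and 23.2 and 22.5 FPKM at 72 h and rose by 0.79. Ctsa, the gene of protective protein cathepsin A, was at 16.3 and 17.5 FPKM at 48 h and 22.8 and 22.6 FPKM at 72 h and rose by 0.41. Atp6v0d1, a proton pump subunit gene, rose by 0.61, while Gla, with the same motif, was not called (0.09). Hexa, which rose most in the list, is not among the genes with the motif in this window.

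**Figure D3:**
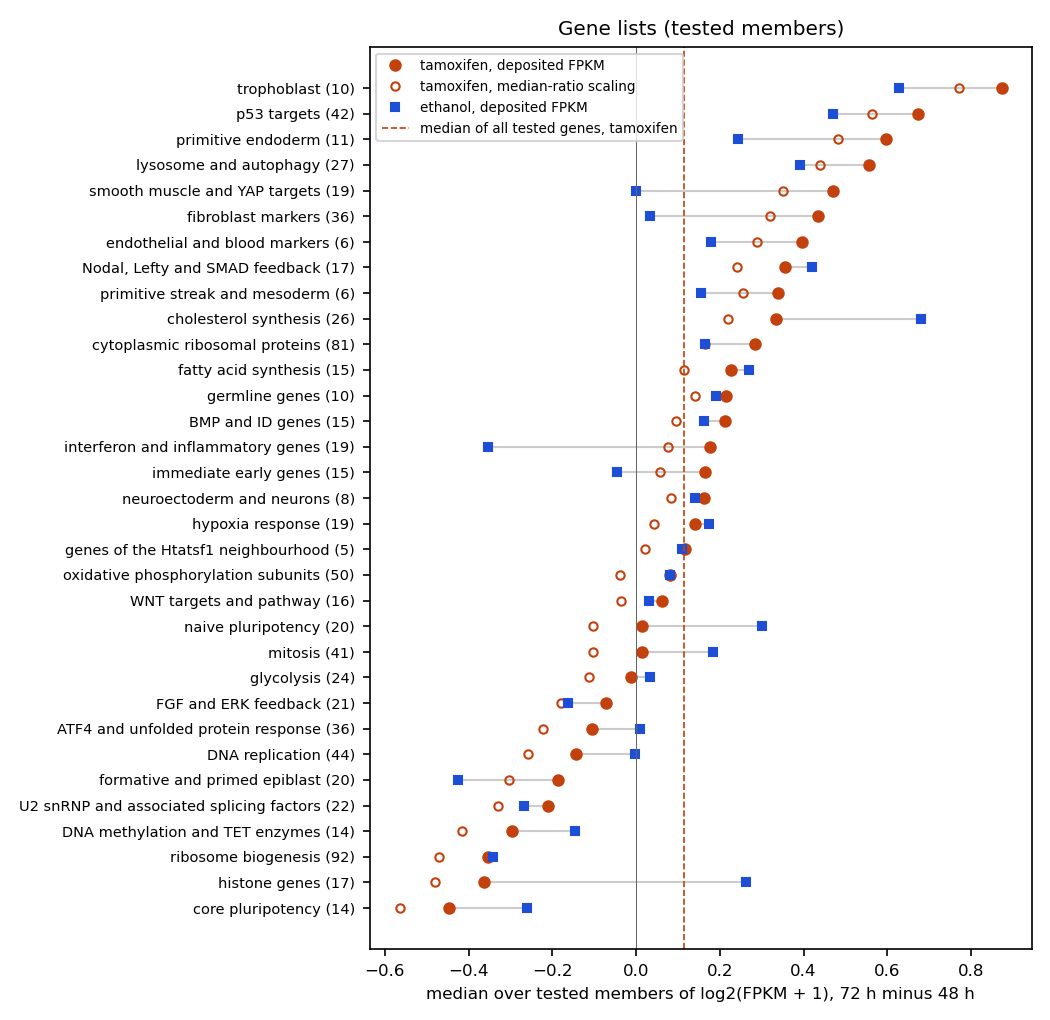
Median change from 48 h to 72 h, as log2(FPKM + 1), over the tested members of each gene list (number in brackets): tamoxifen with deposited FPKM (filled circles), tamoxifen after median-ratio scaling (open circles) and ethanol (squares); the dashed line is the median of all tested genes in tamoxifen, 0.11. Trophoblast, p53 and primitive endoderm lists lie highest in tamoxifen, and core pluripotency, histone and ribosome biogenesis lists lie lowest; 4 medians with deposited FPKM above 0 lie below 0 after scaling (oxidative phosphorylation, WNT, naive and mitosis).

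Most targets of p53 rose. Of 42 tested, 36 rose and 1 fell, beside 37.5% and 19.6% of all genes, with a median of 0.67. After median-ratio scaling 34 rose and 2 fell, beside 27.9% each of all genes. In ethanol 32 rose and 2 fell with a median of 0.47, beside 38.0% and 19.2% of all genes. Mdm2 (chr10:117125961-117147772, mm9), the ubiquitin ligase gene that limits p53, was at 110.2 and 114 FPKM at 48 h and 234 and 234 FPKM at 72 h in tamoxifen, the times far apart, and at 50.8 and 46.9 FPKM at 48 h and 55.7 and 60.1 FPKM at 72 h in ethanol. It rose by 1.06 ± 0.06 (SE), adjusted p = 1.57e-06 in tamoxifen, and the difference from ethanol was 0.82 (adjusted p = 0.0045), called in 8 of 8 refits. Dcxr, a carbonyl reductase gene, was at 12.1 and 11.8 FPKM at 48 h and 29.5 and 30.5 FPKM at 72 h and rose by 1.26, against 1.08 in ethanol. Cdkn1a, which encodes the cell cycle inhibitor p21, was at 70.4 and 67.1 FPKM at 48 h and 122 and 122 FPKM at 72 h and rose by 0.82, 0.39 more than in ethanol (adjusted p = 0.0329; 1 of 8). Pmaip1, the gene of the death protein NOXA, was at 34.2 and 33.1 FPKM at 48 h and 73.7 and 88.4 FPKM at 72 h and rose by 1.24, 0.87 more than in ethanol (adjusted p = 0.00852; 7 of 8). Ephx1, Plk2 and Perp had further positive differences of 0.65, 0.57 and 0.41 (1, 5 and 1 of 8).

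Other p53 targets rose in both treatments. Phlda3 rose by 1.04 in tamoxifen and 1.01 in ethanol, Bbc3 (the death gene PUMA) by 1.04 and 0.90, and Trp53inp1 by 0.90 and 1.13; none of these differences was called. The death gene Bax was not called in tamoxifen, at -0.15. Counting differences in the p53 list, 6 were positive and 0 negative in limma (16 and 3 at an unadjusted p under 0.05), beside 2.00% and 1.45% of all genes. Without 1 library the 6 became 1 (ethanol 48 h replicate 1), 2 (tamoxifen 48 h replicate 1), 3 (ethanol 48 h replicate 2, both ethanol 72 h libraries, tamoxifen 48 h replicate 2 and tamoxifen 72 h replicate 2) or 5.

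Of 36 tested genes of the ATF4 and unfolded protein responses, 10 rose and 13 fell (median -0.11), beside 37.5% and 19.6% of all genes. After median-ratio scaling 7 rose and 19 fell, beside 27.9% each of all genes. In ethanol 10 rose and 11 fell, beside 38.0% and 19.2% of all genes. Ddit3 (chr10:126727849-126733344, mm9), which encodes the stress factor CHOP, was at 9.22 and 7.38 FPKM at 48 h and 29.9 and 34.5 FPKM at 72 h in tamoxifen and 9.41 and 8.32 FPKM at 48 h and 13.2 and 15.4 FPKM at 72 h in ethanol. It rose by 1.84 ± 0.11 (SE), adjusted p = 2.57e-06, and the difference from ethanol was 1.21 (adjusted p = 0.00727), called in 8 of 8 refits. Ddit4, the gene of the mTORC1 inhibitor REDD1, rose by 0.86, 0.45 more than in ethanol (2 of 8). Slc7a3, a cationic amino acid transporter gene, was at 60.8 and 60.9 FPKM at 48 h and 28.2 and 28.2 FPKM at 72 h and fell by 1.08. Chac1, a glutathione-degrading enzyme gene, was at 15.7 and 15.9 FPKM at 48 h and 9.44 and 8.91 FPKM at 72 h and fell by 0.73. Atf4 fell by 0.29, and the chaperone genes Hspa5 and Calr fell by 0.39 and 0.34. The motif TGATGCAA, a form of the element that ATF4 dimers can bind, was found in 6 of 34 promoters of the list (17.6%) and 0.895% of all; it occurred in genes that moved either way, Atf3 and Nupr1 (up by 0.47 and 0.50) and Chac1.

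Cholesterol synthesis genes rose in 18 of 26 cases and fell in 1 (median 0.33), beside 37.5% and 19.6% of all genes. After median-ratio scaling 12 rose and 3 fell, beside 27.9% each of all genes. In ethanol 21 rose and 1 fell, beside 38.0% and 19.2% of all genes. Srebf2, the master transcription factor gene of the pathway, was at 27.4 and 27.2 FPKM at 48 h and 47.9 and 48.6 FPKM at 72 h and rose by 0.80 ± 0.05 (SE), adjusted p = 3.62e-06. Insig1, which encodes a sterol sensor of the endoplasmic reticulum, was at 19.5 and 17.7 FPKM at 48 h and 31.1 and 32.1 FPKM at 72 h and rose by 0.74. Sqle, a squalene-oxidising enzyme gene, was at 25.2 and 25.2 FPKM at 48 h and 26.5 and 26.03 FPKM at 72 h in tamoxifen. The ethanol libraries read 27.1 and 27.9 FPKM at 48 h and 38.3 and 37.8 FPKM at 72 h, a difference of -0.40 (adjusted p = 0.0283; 1 of 8). The single fall was Idi1, by 0.47. In fatty acid synthesis 9 of 15 rose and 1 fell, and 5 rose without tamoxifen 48 h replicate 1. Scd1 and Fads1, desaturase genes, rose by 0.48 and 0.54.

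Of 24 glycolytic genes 7 rose and 9 fell (median -0.01), beside 37.5% and 19.6% of all genes, with 11 and 5 in ethanol. Ldhb, the heart-type lactate dehydrogenase gene, was at 51.8 and 52.4 FPKM at 48 h and 104 and 120.1 FPKM at 72 h in tamoxifen and 56.3 and 55.6 FPKM at 48 h and 199 and 197 FPKM at 72 h in ethanol. It rose by 1.09 in tamoxifen, which differed from ethanol by -0.72 (adjusted p = 0.00727; 8 of 8). Its muscle-type partner Ldha was at 874 and 823 FPKM at 48 h and 559 and 569 FPKM at 72 h and fell by 0.59, with a fall of 0.54 in ethanol. Pdk1, the gene of a kinase that restrains pyruvate oxidation, fell by 0.38 in tamoxifen and rose by 0.31 in ethanol, a difference of -0.69 (adjusted p = 0.00727; 8 of 8). In the hypoxia list 6 of 19 rose and 6 fell, with 3 rises without tamoxifen 48 h replicate 2 or tamoxifen 72 h replicate 2; Bnip3, a mitophagy gene, was at 32.3 and 26.97 FPKM at 48 h and 18.4 and 21.4 FPKM at 72 h in tamoxifen. Ethanol cultures had 42.7 and 43.8 FPKM at 48 h and 47.5 and 43.1 FPKM at 72 h (difference -0.61, 2 of 8). After median-ratio scaling 3 genes of the hypoxia list rose and 8 fell, beside 27.9% each of all genes. Of 50 oxidative phosphorylation subunit genes 15 rose and 6 fell with a median of 0.08, neither share above the 37.5% and 19.6% of all genes. With median-ratio scaling 7 of these 50 rose and 11 fell (median -0.04), beside 27.9% each of all genes. With quantile normalization 24 rose and 4 fell (median 0.17), beside 3051 and 3201 of all 11867 genes. The count of 6 falls was 3 without replicate 1 of either tamoxifen time.

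Of 44 DNA replication genes 6 rose and 19 fell (median -0.14), beside 37.5% and 19.6% of all genes. In ethanol 13 rose and 12 fell, beside 38.0% and 19.2% of all genes. Ccne2, a G1/S cyclin gene, was at 10.1 and 9.71 FPKM at 48 h and 4.35 and 4.84 FPKM at 72 h and fell by 0.97. Pold2, a DNA polymerase delta subunit gene, was at 43.3 and 45.8 FPKM at 48 h and 77.4 and 70.7 FPKM at 72 h and rose by 0.72. Of 41 mitosis genes 10 rose and 9 fell in tamoxifen, the falls near the share of all genes (19.6%) and the rises below it (37.5%). In ethanol 24 mitosis genes rose and 6 fell, beside 38.0% and 19.2% of all genes. After median-ratio scaling 7 mitosis genes rose and 16 fell in tamoxifen, beside 27.9% each of all genes. The 9 falls became 1 without tamoxifen 72 h replicate 1, 2 without tamoxifen 48 h replicate 1 and 5 without either ethanol 48 h library; the median of 0.01 became -0.10 after median-ratio scaling. Hmmr, a spindle protein gene, was at 53.8 and 49.5 FPKM at 48 h and 75.8 and 79.04 FPKM at 72 h and rose by 0.58. Of 17 histone genes 4 rose and 5 fell. The linker histone gene H1f0 was at 16.8 and 15.3 FPKM at 48 h and 33.9 and 35.6 FPKM at 72 h and rose by 1.07, 0.51 more than in ethanol (0 of 8), and the variant gene H2afz fell by 0.58. Some replication-dependent histone genes read higher in tamoxifen 48 h replicate 1 than in replicate 2 of the same time: Hist1h1a was at 171 and 76.4 FPKM and Hist1h4c at 60.6 and 28.3 FPKM in these 2 libraries. Whether this gap lies in the cells or in the bead enrichment of mRNA was not tested. The 5 histone falls were 12 without tamoxifen 48 h replicate 2, 3 without tamoxifen 48 h replicate 1 and 3 without tamoxifen 72 h replicate 1.

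Fibroblast genes rose in tamoxifen and had the most called differences from ethanol of any list. Of 36 tested markers 31 rose and 0 fell in limma (32 and 0 at an unadjusted p under 0.05), beside 37.5% and 19.6% of all genes. Their median was 0.44. After median-ratio scaling 27 rose and 1 fell, beside 27.9% each of all genes. After quantile normalization 27 rose and 0 fell, beside 3051 and 3201 of all 11867 genes. In ethanol 9 rose and 10 fell (median 0.03), beside 38.0% and 19.2% of all genes. The difference was positive in 19 of 36 and negative in 0 (29 and 1 at an unadjusted p under 0.05), beside 2.00% and 1.45% of all genes. The 19 became 5 without ethanol 48 h replicate 1, 6 without ethanol 48 h replicate 2, 7 without ethanol 72 h replicate 1, 8 without tamoxifen 48 h replicate 1 or tamoxifen 72 h replicate 2, and 10 without tamoxifen 48 h replicate 2. Acta2 (chr19:34314826-34329863, mm9), the smooth muscle actin gene of activated fibroblasts, was at 53.95 and 50.3 FPKM at 48 h and 104 and 105 FPKM at 72 h in tamoxifen and 37.4 and 35.4 FPKM at 48 h and 34.7 and 38.00 FPKM at 72 h in ethanol. It rose by 0.99 ± 0.06 (SE), adjusted p = 2.74e-06, and the difference from ethanol was 1.00 (adjusted p = 0.00204; 8 of 8). Col1a1, a collagen I gene, was at 79.4 and 78.7 FPKM at 48 h and 121 and 125 FPKM at 72 h in tamoxifen. Its ethanol values were 53.01 and 50.03 FPKM at 48 h and 51.8 and 54.8 FPKM at 72 h (difference 0.58, adjusted p = 0.00727; 8 of 8). Timp2, a metalloprotease inhibitor gene, rose by 0.36 in tamoxifen and fell by 0.50 in ethanol (difference 0.85, 8 of 8). Thy1, a surface marker gene, rose by 0.35 and fell by 0.26 (difference 0.61, 8 of 8). Mmp2, the gene of gelatinase A, rose in both, by 1.21 in tamoxifen and 0.93 in ethanol, and that difference was not called.

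The summed FPKM of 8 defining fibroblast markers (Col1a1, Col1a2, Col3a1, Lum, Thy1, Pdgfrb, Postn and Fbn1) was 227 and 228 at 48 h and 318 and 345 at 72 h in tamoxifen, against 152 and 146 at 48 h and 142 and 149.6 at 72 h in ethanol, with none of the 8 at 0 in any library. The tamoxifen 72 h libraries were thus the highest of the 8. The sum of 7 ES cell markers (Pou5f1, Nanog, Zfp42, Sall4, Esrrb, Epcam and Cdh1) was 1137 and 1144 at 48 h and 1089.8 and 1100.3 at 72 h in tamoxifen, and 1092 to 1171 in ethanol. Pou5f1 was the largest part of this sum, and its members moved in opposite directions in tamoxifen. Mean FPKM of Pou5f1 went from 622 to 524 and of Sall4 from 81.2 to 59.85. Nanog went from 61.6 to 103 and Esrrb from 58.8 to 108. Zfp42 also fell, and Epcam and Cdh1 were not called. In bulk RNA a change in the number of cells of a type and a change in RNA per cell cannot be told apart. The part of feeder RNA in the changes of the genes that fibroblasts express, such as the collagen, basement membrane and contractile genes, was not tested. Defining markers of endothelium and blood summed to 0.958 to 1.85 FPKM over the 8 libraries.

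**Figure D4:**
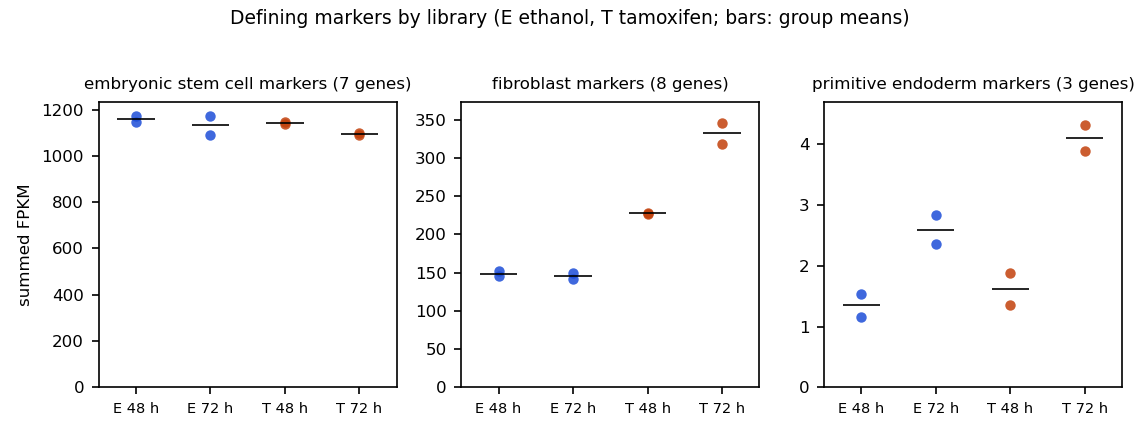
Summed FPKM of defining markers of ES cells (7 genes), fibroblasts (8) and primitive endoderm (3) in each library, by treatment and time. The fibroblast sum is highest in both tamoxifen 72 h libraries (318 and 345), while the ES cell sums of all 8 libraries lie between 1089.8 and 1171. The ES cell sum joins genes that rose and genes that fell in tamoxifen.

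Contractile genes and targets of the YAP pathway were mostly higher at 72 h as well. In tamoxifen 14 of 19 rose and 2 fell (median 0.47), beside 37.5% and 19.6% of all genes. In ethanol 7 rose and 6 fell, beside 38.0% and 19.2% of all genes. Called differences were 9 positive and 0 negative in limma (15 and 0 at an unadjusted p under 0.05), beside 2.00% and 1.45% of all genes. Acta2 is a member of both this list and the fibroblast list, so the counts of these lists are not independent. The 9 became 3 without either ethanol 48 h library and 5 without ethanol 72 h replicate 1. Actg2, the enteric smooth muscle actin gene, was at 2.17 and 2.53 FPKM at 48 h and 5.76 and 6.61 FPKM at 72 h in tamoxifen. The ethanol libraries read 1.54 and 1.97 FPKM at 48 h and 1.49 and 0.925 FPKM at 72 h, a difference of 1.43 (adjusted p = 0.00883; 8 of 8). Myl9, a myosin light chain gene, was at 13.4 and 13.5 FPKM at 48 h and 23.00 and 23.7 FPKM at 72 h in tamoxifen. Ethanol cultures had 10.7 and 12.4 FPKM at 48 h and 11.3 and 10.3 FPKM at 72 h, a difference of 0.84 (adjusted p = 0.00727; 8 of 8). The YAP target Amotl2 rose in both, by 0.81 and 0.61, without a called difference. In the interferon and inflammatory list 7 of 19 rose and 3 fell; 4 rose without tamoxifen 48 h replicate 2 or tamoxifen 72 h replicate 2, and the list median of 0.18 became -0.03 after quantile normalization. Bst2, the gene of the antiviral protein tetherin, rose by 0.71, 0.48 less than in ethanol (1 of 8), and Nfkbia, an inhibitor gene of NF-κB, rose by 1.00. Flt1 and Tek, receptor genes of endothelium, rose by 0.45 and 0.52 and lost their calls under quantile normalization.

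The genes whose change over the day differed most from ethanol were largely outside the lists. Ppbp, a platelet chemokine gene, was at 0.874 and 0.696 FPKM at 48 h and 2.69 and 3.93 FPKM at 72 h in tamoxifen. Its ethanol values were 0.568 and 1.32 FPKM at 48 h and 0.107 and 0.783 FPKM at 72 h, a difference of 1.70 (adjusted p = 0.0306), but its values are near 1 FPKM and 2 of 8 refits called it. Il1rl1, the gene of the interleukin 33 receptor, was at 33.8 and 30.02 FPKM at 48 h and 23.9 and 26.1 FPKM at 72 h in tamoxifen and 18.01 and 18.1 FPKM at 48 h and 4.52 and 4.93 FPKM at 72 h in ethanol. It fell in both, by 0.34 and 1.74, and the difference of 1.399 (adjusted p = 0.00138) was called in 8 of 8. Gadd45g, a growth arrest gene, was at 15.6 and 13.9 FPKM at 48 h and 23.4 and 22.4 FPKM at 72 h in tamoxifen and 10.1 and 11.4 FPKM at 48 h and 6.52 and 6.10 FPKM at 72 h in ethanol, so it rose in the one and fell in the other (difference 1.28, adjusted p = 0.00204; 8 of 8). Ltb4r2, a leukotriene receptor gene, was at 2.13 and 3.25 FPKM at 48 h and 8.32 and 7.71 FPKM at 72 h in tamoxifen. The ethanol libraries read 0.765 and 0.847 FPKM at 48 h and 0.986 and 1.09 FPKM at 72 h (difference 1.13; 5 of 8); both tamoxifen 72 h libraries lay above the other 6. Sprr2k, a cornified envelope gene, rose by 0.44 and fell by 0.80 in ethanol (difference 1.24; 8 of 8). Gm3258, an uncharacterised gene, had a difference of 1.60 (8 of 8).

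On the negative side, the uncharacterised gene Gm20594 had the largest difference: it was at 2638 and 1757 FPKM at 48 h and 1374 and 1843 FPKM at 72 h in tamoxifen, where the times overlapped, and at 833 and 1136 FPKM at 48 h and 2979.9 and 3284 FPKM at 72 h in ethanol (difference -2.12, adjusted p = 0.00727; 8 of 8). Lrrc34, a gene of pluripotent cells and oocytes, was at 5.37 and 3.64 FPKM at 48 h and 6.08 and 6.51 FPKM at 72 h in tamoxifen. Ethanol cultures had 4.44 and 4.94 FPKM at 48 h and 15.7 and 16.1 FPKM at 72 h (difference -1.15, adjusted p = 0.0143; 7 of 8). For Lrrc34 both ethanol 72 h libraries lay above the other 6. Gjb1, a connexin gene, was at 0.863 and 0.865 FPKM at 48 h and 0.784 and 0.385 FPKM at 72 h in tamoxifen. Its ethanol values were 0.176 and 0.335 FPKM at 48 h and 1.58 and 1.499 FPKM at 72 h (difference -1.26, adjusted p = 0.0143; 7 of 8). Ly6g6e rose in both, by 1.27 in tamoxifen and 2.34 in ethanol (difference -1.07; 7 of 8). Slc17a9, a nucleotide transporter gene, was at 3.15 and 3.42 FPKM at 48 h and 3.59 and 2.92 FPKM at 72 h in tamoxifen and 3.03 and 2.77 FPKM at 48 h and 6.30 and 6.60 FPKM at 72 h in ethanol (difference -0.95; 7 of 8), again with both ethanol 72 h libraries above the other 6. Fuom, Prss16 and H2-Q8 had differences of -1.099, -0.95 and -0.90 (7, 2 and 0 of 8).

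**Figure D5:**
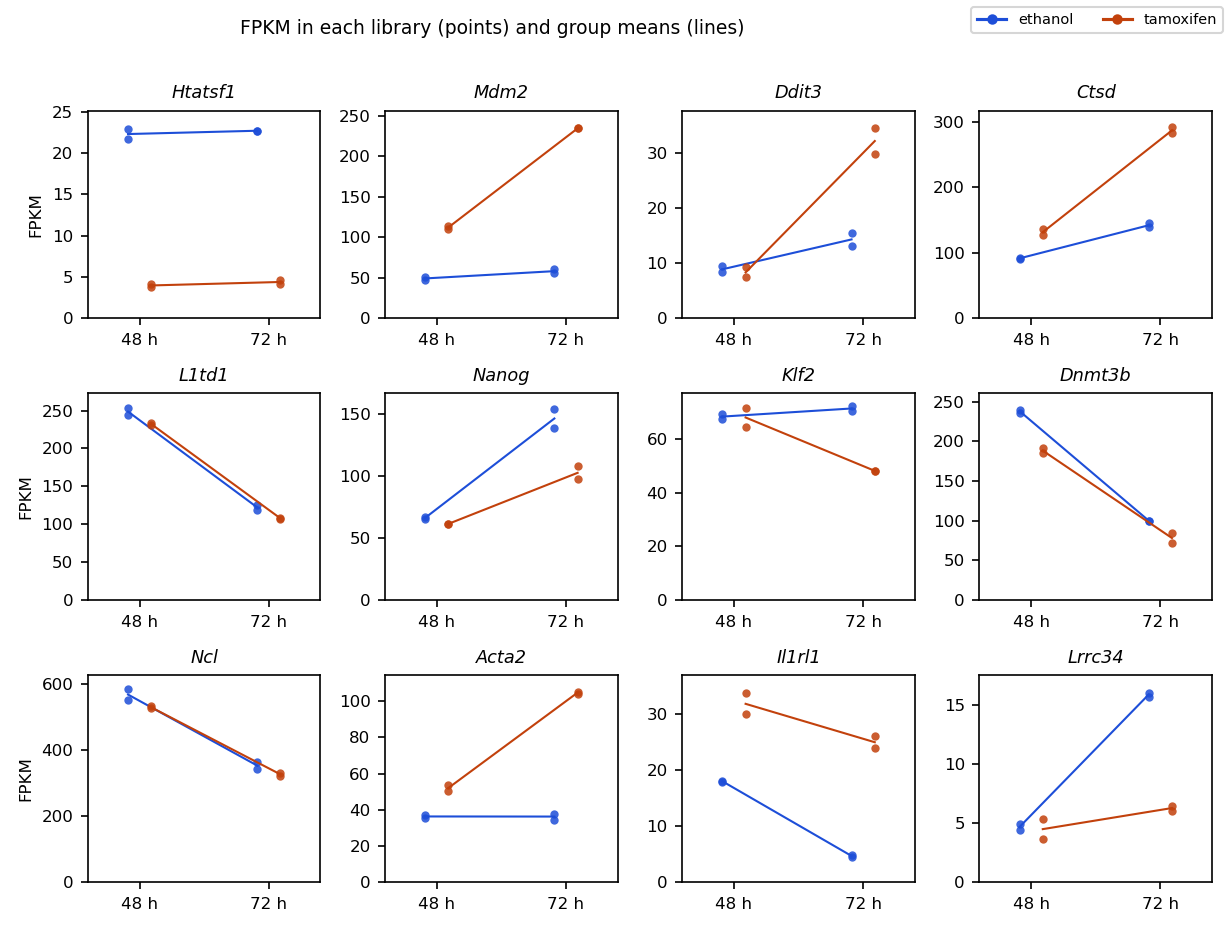
FPKM of 12 genes in each library (points) with group means joined from 48 h to 72 h (lines), for ethanol and tamoxifen; each vertical axis starts at 0. Mdm2, Ddit3, Ctsd and Acta2 rise more steeply in tamoxifen, Klf2 falls in tamoxifen while its ethanol libraries of 72 h (72.1 and 70.5) lie just above those of 48 h (69.2 and 67.4), L1td1, Dnmt3b and Ncl fall in both treatments, with Dnmt3b lower in tamoxifen at each time, and Lrrc34 reaches 6.08 and 6.51 FPKM in tamoxifen and 15.7 and 16.1 FPKM in ethanol.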

How the data were processed

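RNA was isolated with Trizol, mRNA was enriched with beads, and libraries were made with a Kapa kit, with actinomycin D during cDNA synthesis, and read as 100-base pairs on a HiSeq2000, per the labels' protocols; whether strand was kept is not stated. The deposited tables give FPKM per gene and library, which the authors computed, with the gene's position in mm9. The submitters' processing notes name BWA 0.6.1, TopHat 1.4.1, Cufflinks 1.3.0, HTSeq, DESeq and the build mm9; which of them made these tables is not given in the sources used here. Each table lists 20789 distinct entries. Any entry that lacked an OK status somewhere in the 8 libraries (209) was dropped, and for a symbol with several entries the one of highest mean FPKM over the 8 libraries was kept, which left 20388 genes.

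FPKM was used as log2(FPKM + 1) with no rescaling. Genes with at least 1 FPKM in at least 2 of 8 libraries (11867) were fitted with limma 3.58.1 in R 4.3.3, one mean per group over all 8 libraries (4 residual degrees of freedom), with a mean trend; tests are two-sided with Benjamini-Hochberg adjustment over all genes tested, and every adjusted p in the text is from this fit unless another is named. The fit was tested on simulated data. Depth was read from the deposited upper confidence bound of each FPKM, taken as 2 SD of a Poisson count; of low genes (at most 20 fragments) 91.6% to 92.8% then gave whole fragments within 0.02, and the median tested gene had 260 to 531 fragments. These limit the precision of low genes.

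Named genes are Htatsf1, the 10 largest rises and falls among called genes whose libraries do not overlap (uncharacterised symbols left out), the 8 largest called differences from ethanol in each direction, the 2 members of smallest p in each of the lists with at least 5 tested members, and defining markers; further members are named as examples of a count and were chosen after their values were seen. The members and all 35 lists (922 entries) were chosen with earlier results of these data known. Some genes are members of several lists, such as Acta2, Lefty1 and Lef1, so the counts of such lists are not independent. Alternatives were pseudocounts of 0.1 and 5, no filter and a filter of 5 FPKM, median-ratio scaling, quantile normalization, no trend, the 4 tamoxifen libraries alone, the replicate number as a block, and each library left out in turn.

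Promoters are those of RefSeq on GRCm38.p6, matched by symbol; coordinates of genes are those of the deposited tables on mm9. Start positions in the tables were raised by 1 to count from 1. No genome of build mm9 was used here. Results of a few genes that these rules would name are not reported here.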

Additional observations from a re-analysis of the deposited data

Results flagged for a closer look

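The change from 48 h to 72 h differed between tamoxifen and ethanol, by limma's test of the difference itself, for the following genes among those named in the text or used as defining markers. Tamoxifen minus ethanol on the log2(FPKM + 1) scale is in brackets. Among genes of fibroblasts and muscle the values were Actg2 (1.43), Acta2 (1.00), Acta1 (0.90), Timp2 (0.85), Myl9 (0.84), Thy1 (0.61), Col1a2 (0.59) and Col1a1 (0.58). In p53, stress and growth arrest genes the values were Gadd45g (1.28), Ddit3 (1.21), Pmaip1 (0.87), Mdm2 (0.82), Ephx1 (0.65), Plk2 (0.57), Ddit4 (0.45), Perp (0.41) and Cdkn1a (0.39). In pluripotency genes and Fst the values were Fst (0.72), Fgf4 (-0.36), Nanog (-0.40), Zfp42 (-0.42), Dnmt3l (-0.42), Klf4 (-0.44), Nr0b1 (-0.50), Klf2 (-0.55), Trim71 (-0.58), Fbxo15 (-0.59) and Nr5a2 (-0.74).

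In signalling and lineage genes the values were Fosl1 (0.97), Myc (0.74), Neurod1 (0.59), Pim2 (0.52), Krt18 (0.41), Stmn2 (-0.47), Tfap2c (-0.68) and Lefty2 (-0.69). In lysosomal and metabolic genes the values were Ctsd (0.49), Ctsb (0.40), Sqstm1 (0.38), Sqle (-0.40), Bnip3 (-0.61), Pdk1 (-0.69), Manba (-0.70) and Ldhb (-0.72). In splicing and linker histone genes the values were H1f0 (0.51), Rbm17 (0.38), Sf3b3 (0.33) and U2surp (-0.39). The remaining genes were Ppbp (1.70), Gm3258 (1.60), Il1rl1 (1.399), Sprr2k (1.24), Ltb4r2 (1.13), Tm4sf1 (0.96), Cd44 (0.84), Ptgs2 (0.67), Ccnd1 (0.66), Tnc (0.66), Bst2 (-0.48), H2-Q8 (-0.90), Slc17a9 (-0.95), Prss16 (-0.95), Ly6g6e (-1.07), Fuom (-1.099), Lrrc34 (-1.15), Gjb1 (-1.26) and Gm20594 (-2.12). Of all these genes, Gm3258, Actg2, Il1rl1, Gadd45g, Sprr2k, Ddit3, Acta2, Fosl1, Tm4sf1, Timp2, Cd44, Myl9, Mdm2, Ptgs2, Ccnd1, Tnc, Thy1, Col1a1, Gm20594, Ldhb, Manba, Lefty2, Pdk1 and Tfap2c kept the call whichever 1 of the 8 libraries was left out. No group had enough libraries to test for a library far from the others.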

How the results depend on the processing

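Counts between the tamoxifen times stayed within 1.5 times under every alternative: with single libraries left out, rises ranged from 3714 to 4393 and falls from 1745 to 2283. With median-ratio scaling the counts were 3316 and 3311, with quantile normalization 3051 and 3201, and in the 4 tamoxifen libraries alone 4181 and 2115. Counts of differences from ethanol did not: leaving out the filter took positive ones from 237 to 31 and negative ones from 172 to 13, leaving out the trend took them to 148 and 78, and the replicate block took the negative ones to 108; single libraries left out gave 37 to 160 and 13 to 100, each of these refits having fewer libraries. The cause of the other changes was not tested. Replicate numbers are not said to pair samples; the correlation of their deviations was -0.28 between the tamoxifen times and 0.15 between the ethanol times. The block gave 4359 rises, 2251 falls and 158 positive differences. Of 78 named genes called between the tamoxifen times, Flt1 and Tek lost the call under quantile normalization (adjusted p = 0.0811 and 0.0617) and none under the other alternatives, though with the filter of 5 FPKM only 69 of the 78 were tested. Under quantile normalization the uncalled value of Htatsf1 changed sign, to -0.11 (adjusted p = 0.272). Of 16 genes named for their difference, 13 lost the call without the filter, 3 without the trend, 3 with a pseudocount of 0.1, 2 with the block and 1 to 7 with a library left out; 0 did so after either rescaling or with a pseudocount of 5, nor did any of the 10 that could be tested with the filter of 5 FPKM. List counts that 1 library moved by over 1.5 times are given with the lists, save some counts of 3 or fewer. Depth limits genes near 1 FPKM most.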

Other observations

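Several genes outside the lists kept a called difference from ethanol in all 8 refits with 1 library left out; they were picked after their values were seen and are given as values. Cd44, a hyaluronan receptor gene, was at 47.4 and 44.9 FPKM at 48 h and 34.6 and 35.8 FPKM at 72 h in tamoxifen and 29.7 and 30.7 FPKM at 48 h and 11.4 and 13.4 FPKM at 72 h in ethanol (difference 0.84). Tm4sf1, a membrane protein gene, was at 18.8 and 18.02 FPKM at 48 h and 12.5 and 14.7 FPKM at 72 h in tamoxifen and 12.9 and 13.9 FPKM at 48 h and 4.30 and 4.85 FPKM at 72 h in ethanol (difference 0.96). Ccnd1, the cyclin D1 gene, was at 68.00 and 71.7 FPKM at 48 h and 56.4 and 53.01 FPKM at 72 h in tamoxifen and 59.4 and 59.3 FPKM at 48 h and 29.2 and 28.8 FPKM at 72 h in ethanol (difference 0.66). Ptgs2, the gene of cyclooxygenase 2, and Tnc, the gene of the matrix protein tenascin C, had differences of 0.67 and 0.66.

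Manba, a lysosomal mannosidase gene, went against the lysosome list: its difference was -0.70, with 20.96 and 21.8 FPKM at 48 h and 19.08 and 20.5 FPKM at 72 h in tamoxifen and 22.7 and 23.3 FPKM at 48 h and 34.8 and 35.3 FPKM at 72 h in ethanol.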
